A study of Mus musculus with 6 samples.

Results

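The tumor necrosis factor (TNF) superfamily was examined in the distal colon of mice without TNFR2, one of the TNF receptors. Members were taken by symbol: every row whose name starts with Tnfrsf (receptors) or Tnfsf (ligands), and the relatives that carry other names (Tnf, Lta, Ltb, Ltbr, Fas, Fasl, Cd27, Cd40, Cd40lg, Cd70, Ngfr, Eda, Edar, Eda2r and Relt). This gave 46 rows of 24617, which hold 18 ligand and 28 receptor rows. Both groups were male C57Bl/6 mice aged 8 weeks, wildtype (3 libraries) or TNFR2-/- (3 libraries). No other allele or agent is given for either group, and the sources used here do not give how the knockout was made. RNA came from whole distal colon, so each value is a sum over all cells of the sample.

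Ligands of this family are trimers that sit on the cell surface or are shed from it, and each one clusters its receptors on the partner cell. Receptors with a cytoplasmic death domain, such as Tnfrsf1a (TNFR1) and Fas, can start cell death, while those without one, such as Tnfrsf1b (TNFR2), Cd40 and Ltbr, recruit TRAF adaptors and switch on NF-kB. In the gut wall the family is known for driving inflammation, for building and maintaining lymphoid follicles, and for the survival of B cells and of cells that make IgA.

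Libraries differed in depth and in tissue makeup. Steps between the lowest values put relative depth between 0.736 (wildtype library 3) and 1.10 (knockout library 3), with wildtype library 1 set to 1. Colon epithelium markers (6 found of 7 listed, among them Epcam and Cdh1) summed to 1974 to 2722 FPKM in wildtype colon and 2194 to 3138 FPKM in knockout colon, and none was listed at 0. Skin markers (7 of 8) summed to 652, 257 and 727 FPKM in wildtype libraries 1 to 3 and to 41, 337 and 622 FPKM in knockout libraries 1 to 3. Hair follicle markers (8 of 8) summed to 47, 11.3 and 70.1 FPKM against 2.48, 4 and 13.5 FPKM, and skeletal muscle markers (8 of 8) to 2165 to 7036 FPKM against 121 to 1584 FPKM. These tissues are not part of the colon, and knockout library 1 was the lowest in all 3 lists. Members that move with them are described with these sums beside them.

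Of the 46 rows, 32 reached the minimum for testing, a mean of 0.5 FPKM over the 6 libraries. FPKM counts fragments relative to transcript length and to the mapped fragments of the library, so levels can be set side by side between genes. Receptor rows reached the minimum and high levels more often than ligand rows. The medians of the tested rows were close, 2.79 FPKM for receptors and 2.31 FPKM for ligands. Of the 28 receptor rows 23 were tested and 9 averaged at least 5 FPKM, one of them a row that Tnfrsf4 shares with Sdf4, while of the 18 ligand rows 9 were tested and 2 averaged at least 5 FPKM. The highest receptor, Ltbr, averaged 57.5 FPKM. The highest ligand row, at 26.9 FPKM, covers both Tnfsf12 and Tnfsf13, and the highest ligand with a row of its own was Tnfsf13b at 7.46 FPKM.

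**Figure D1:**
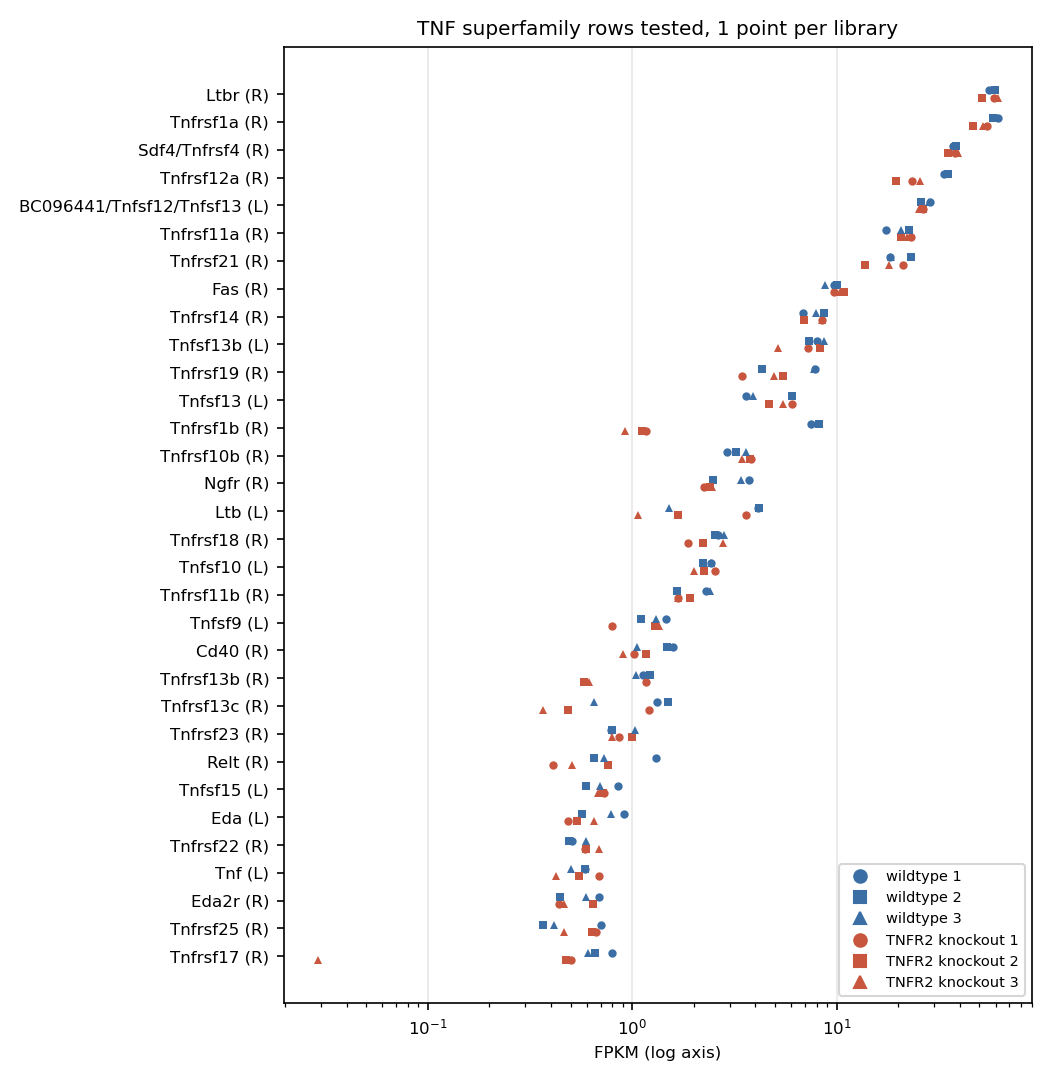
Levels of the 32 tested rows, from the highest mean at the top to the lowest at the bottom. Each point is a library (blue wildtype, red knockout, the marker shape gives the library number), the x axis is FPKM on a log scale, and L and R mark ligands and receptors. Tnfrsf1b is the row with the widest gap between the colours, and Tnfrsf12a and Tnfrsf1a are the other rows at high levels in which no red point reaches the blue ones.

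Among these 32 rows limma called 1, Tnfrsf1b itself, at a Benjamini-Hochberg adjusted p under 0.05. The share called over all 14564 tested genes was 0.288%. Knockout and wildtype values did not overlap in 5 of the 32 rows (15.6%), all of them lower in the knockout: Tnfrsf1b, Tnfrsf12a, Tnfrsf1a, Ngfr and Tnfrsf17. Tnfrsf17 reached the minimum for testing through its wildtype mean of 0.687 FPKM, since its knockout mean was 0.335 FPKM. Its place in this count depends on the wildtype values. Over all tested genes the groups did not overlap in 21.8%, and in 12.5% the knockout was the lower group. The members' 15.6% lay below the first share and above the second, and it includes Tnfrsf1b, the targeted gene itself. Means on the log2 scale were lower in the knockout for 23 of 32 rows with a median change of -0.13, against 57.4% of all tested genes and a median of -0.03. An absolute log2 change of at least 0.5 was reached by 2 of the 32 rows (6.25%), Tnfrsf1b and Tnfrsf12a, against 6.17% of all tested genes.

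**Figure D2:**
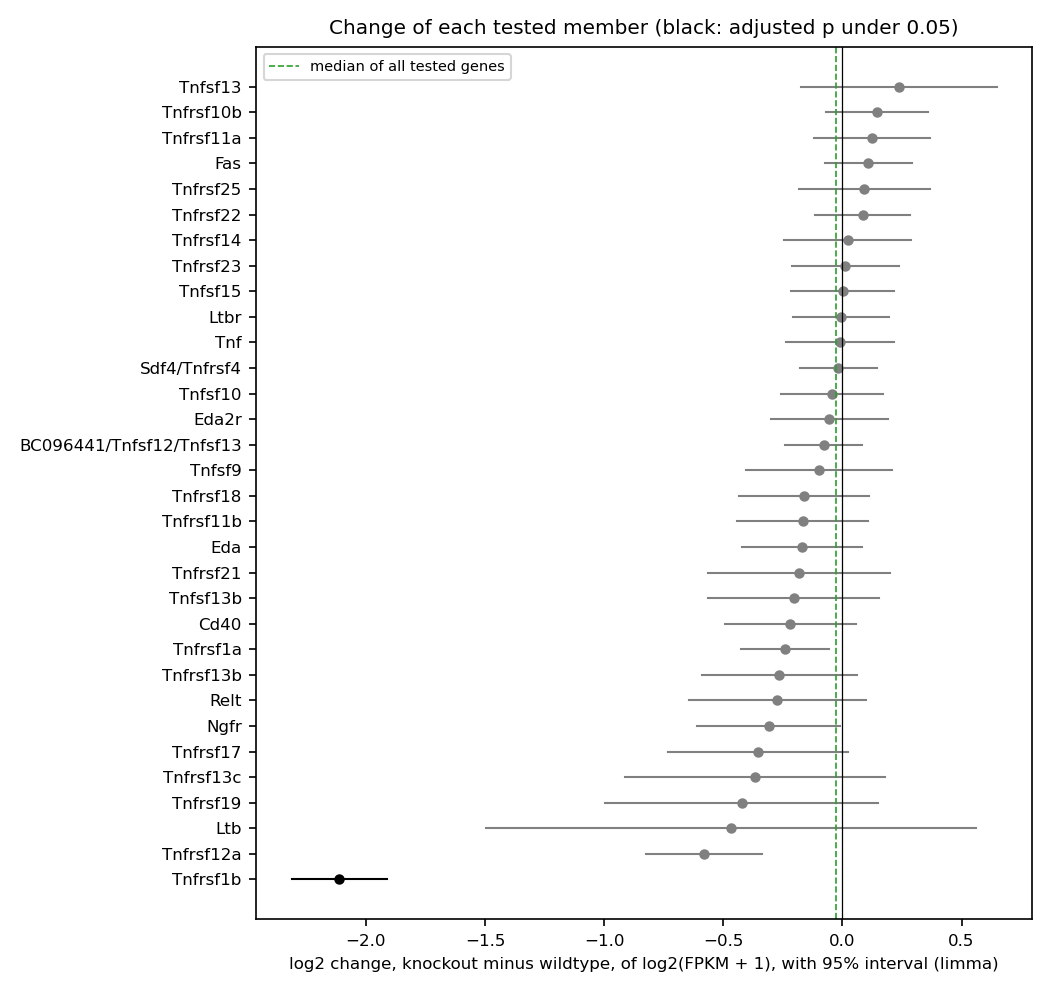
Log2 change of log2(FPKM + 1), knockout minus wildtype, for the 32 tested rows, with the 95% interval from limma. The black row, Tnfrsf1b, passed the adjusted threshold, the grey rows did not, and the dashed line is the median of all tested genes (-0.03).

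Where no change was called, the intervals show how large a change the data leave room for. On the log2(FPKM + 1) scale, 20 of the 31 rows without a call had a 95% interval of the log2 change within -0.5 to 0.5, and 30 had one within -1 to 1, the exception being Ltb with an interval from -1.50 to 0.56. The added 1 narrows the intervals of low members. With 0.1 added in its place, 11 of the 31 lay within -0.5 to 0.5 and 25 within -1 to 1, and the 6 outside were Ltb, Relt, Tnfrsf13b, Tnfrsf13c, Tnfrsf17 and Tnfrsf19. Adjusted p-values of these 31 rows ran from 0.134 (Tnfrsf12a) to 0.999 (Tnfsf15).

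The promoters of 4 genes are shown here to be read against each other. They are the targeted receptor Tnfrsf1b, the receptor Tnfrsf12a, which was not called, and the ligands Tnf and Ltb. Each runs from 250 bases before to 50 bases after the start of the gene, 5' to 3' on the strand of the gene, from RefSeq (GRCm38.p6). Capitals mark matches on either strand to the NF-kB consensus motif, or to the GC box GGGCGG that Sp family factors bind; overlapping matches are capitalised as 1 block.
Tnfrsf1b, chr4:145246821-145247120, minus strand: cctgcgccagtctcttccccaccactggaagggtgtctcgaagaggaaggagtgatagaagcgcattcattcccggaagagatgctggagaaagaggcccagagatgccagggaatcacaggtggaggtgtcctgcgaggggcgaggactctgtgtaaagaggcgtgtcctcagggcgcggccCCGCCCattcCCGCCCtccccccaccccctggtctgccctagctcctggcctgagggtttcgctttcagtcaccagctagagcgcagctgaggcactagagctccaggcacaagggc
Tnfrsf12a, chr17:23677400-23677699, minus strand: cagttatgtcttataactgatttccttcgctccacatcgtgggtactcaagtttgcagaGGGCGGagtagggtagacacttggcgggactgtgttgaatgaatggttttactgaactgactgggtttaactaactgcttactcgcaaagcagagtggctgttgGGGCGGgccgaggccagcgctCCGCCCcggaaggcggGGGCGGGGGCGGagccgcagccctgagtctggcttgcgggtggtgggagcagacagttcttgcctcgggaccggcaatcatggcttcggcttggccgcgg
Ltb, chr17:35194257-35194556, plus strand: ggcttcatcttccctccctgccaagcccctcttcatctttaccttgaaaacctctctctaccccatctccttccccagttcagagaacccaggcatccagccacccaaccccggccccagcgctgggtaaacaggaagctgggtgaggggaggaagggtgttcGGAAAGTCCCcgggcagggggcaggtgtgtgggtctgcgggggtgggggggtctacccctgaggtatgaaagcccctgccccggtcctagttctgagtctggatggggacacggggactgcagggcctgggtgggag
Tnf, chr17:35201958-35202257, minus strand: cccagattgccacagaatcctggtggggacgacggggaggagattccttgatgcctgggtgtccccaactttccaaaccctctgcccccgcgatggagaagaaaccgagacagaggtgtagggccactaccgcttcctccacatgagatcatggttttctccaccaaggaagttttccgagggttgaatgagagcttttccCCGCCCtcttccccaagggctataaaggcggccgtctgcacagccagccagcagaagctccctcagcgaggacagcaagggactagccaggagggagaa
The Tnfrsf1b promoter holds 2 GC boxes, that of Tnfrsf12a 5, that of Tnf 1 and that of Ltb 0. In these windows the NF-kB consensus was matched in Ltb, where it begins 87 bases before the start, and not in the other three. Of the 46 member symbols 36 had a promoter in the RefSeq table, and 2 of these 36 (5.56%), Ltb and Tnfrsf8, hold a match to the NF-kB consensus, against 8.18% of all 27025 promoters of the same length. A GC box lies in 19 of the 36 (52.8%) and in 35.9% of all promoters. A match of letters is a description of the sequence and says nothing about binding in these samples.

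TNF itself was expressed at a low level. Tnf, the founding ligand of the family and a product mainly of macrophages and T cells, stood at 0.59, 0.59 and 0.503 FPKM in wildtype libraries 1 to 3 and at 0.689, 0.55 and 0.423 FPKM in knockout libraries 1 to 3. The knockout values lay on both sides of the wildtype ones, and the log2 change was -0.01 with a 95% interval from -0.24 to 0.22 (limma, adjusted p = 0.970). Levels this low rest on few fragments, and the +1 added before taking logs narrows the interval. Lta, the gene of lymphotoxin alpha, which lies next to Tnf on chromosome 17, was below the minimum for testing with values of 0.329, 0.322 and 0.0894 FPKM against 0.437, 0.301 and 0.0747 FPKM.

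The receptors for TNF differed strongly in level. Tnfrsf1b (chromosome 4, 145212368 to 145246870, GRCm38, the same assembly as mm10) gave 7.49, 8.20 and 8.17 FPKM in wildtype colon and 1.17, 1.12 and 0.924 FPKM in knockout colon. Every knockout library kept some signal, the mean being 13.5% of wildtype, and the group means of 7.95 ± 0.398 and 1.07 ± 0.131 FPKM (SD, n = 3 each) lay far beyond the spread within groups. This was a fall of 2.11 on the log2 scale with a 95% interval of the change from -2.31 to -1.91 (limma, adjusted p = 7.1e-05). Which exons the remaining fragments come from cannot be read from values per gene.

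Tnfrsf1a (chromosome 6, 125349723 to 125362483), the death domain receptor for TNF that most cell types carry, was among the most highly expressed members. It reached 61.6, 58.2 and 61.0 FPKM in wildtype colon and 54.4, 46.6 and 51.9 FPKM in knockout colon. All 3 knockout values were below all 3 wildtype values, and the knockout mean was 84.5% of wildtype (60.3 ± 1.83 and 50.9 ± 3.99 FPKM, SD, n = 3 each). The log2 change of -0.24, interval -0.43 to -0.06, did not pass over all genes (limma, adjusted p = 0.258). No higher level of the remaining TNF receptor was seen: the upper end of its unadjusted interval is below 0. Plekhg6, whose gene lies beside Tnfrsf1a within the same deposited locus, averaged 9.72 ± 1.43 FPKM in wildtype colon and 9.58 ± 2.46 FPKM in knockout colon. Tapbpl, another gene nearby, ran the opposite way to Tnfrsf1a, with 12.7, 14.0 and 13.5 FPKM against 17.0, 16.7 and 18.9 FPKM, and was not called (log2 change 0.36, limma, adjusted p = 0.159).

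Per library, the level of Tnfrsf1a was 8.23, 7.10 and 7.47 times that of Tnfrsf1b in wildtype colon. In knockout colon the ratio was 46.4, 41.7 and 56.1. The shift comes from the targeted gene, so it is given only as a description of the balance of transcripts.

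The lymphotoxin arm showed a receptor that was high and even beside ligands that were low and uneven. Ltbr, the receptor that stromal and epithelial cells use to sense lymphotoxin, is a neighbour of Tnfrsf1a on chromosome 6 and held 55.5, 59.5 and 57.8 FPKM in wildtype colon against 59.3, 51.5 and 61.6 FPKM in knockout colon. The groups overlapped, with a log2 change of -0.01 and an interval from -0.21 to 0.19 (limma, adjusted p = 0.973). Ltb, the gene of the membrane anchor of lymphotoxin, had 4.14, 4.19 and 1.51 FPKM in wildtype colon and 3.60, 1.67 and 1.07 FPKM in knockout colon. Wildtype library 3 fell among the low knockout values and knockout library 1 among the high wildtype ones (limma, adjusted p = 0.597). Tnfsf14 (LIGHT), which binds both Ltbr and Tnfrsf14, was not tested at 0.258, 0.149 and 0.207 FPKM against 0.139, 0.175 and 0.107 FPKM. Its other receptor Tnfrsf14 (HVEM) was steady at 6.81, 8.70 and 7.93 FPKM against 8.47, 6.89 and 8.47 FPKM (log2 change 0.02, interval -0.24 to 0.29, limma, adjusted p = 0.939).

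Tnfrsf12a, which encodes Fn14, the small receptor for TWEAK and a gene known to be switched on in injured and growing tissue, had the largest change of the tested members after the targeted gene on the log2(FPKM + 1) scale, but it did not pass the test. With 0.1 added in place of 1, Tnfrsf17 (-1.14), Tnfrsf13c (-0.75) and Ltb (-0.65) came before its -0.60. It stood at 33.7, 35.2 and 34.4 FPKM in wildtype colon and at 23.3, 19.4 and 25.7 FPKM in knockout colon. The wildtype values were tight (SD 0.721 FPKM), the knockout values were spread more widely (SD 3.16 FPKM), and the highest knockout library was below the lowest wildtype one. Mean expression was 34.4 FPKM in wildtype colon and 22.8 FPKM in knockout colon, 66.2% of wildtype (n = 3 each).

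The log2 change of Tnfrsf12a was -0.58 with a 95% interval from -0.83 to -0.34, and it missed the threshold over all genes (limma, adjusted p = 0.134). Over the 15 other settings tried, the change lay between -0.67 and -0.48 and the adjusted p between 0.070 and 0.482. With the mean of the skin markers as a covariate it was -0.58 (limma, adjusted p = 0.254). Markers of macrophages, endothelium and skeletal muscle also had no knockout sum within the wildtype range, while the fibroblast sums overlapped. For skeletal muscle the sums were 2165 to 7036 FPKM against 121 to 1584 FPKM. Single genes did not always follow their sums. Of the fibroblast list, Col3a1, Col1a1 and Pdgfra were lower in the knockout without overlap, while Dcn and Col1a2 overlapped. Cx3cr1 of the macrophage list and Emcn of the endothelial list overlapped. Macrophage markers (8 found of 9 listed) summed to 464, 409 and 429 FPKM against 340, 345 and 235 FPKM, endothelial markers (5 of 5) to 56.9, 41.5 and 51.6 FPKM against 36.5, 38.9 and 29.7 FPKM, and fibroblast markers (5 of 5) to 1453, 1065 and 1332 FPKM against 861, 1091 and 848 FPKM. None of these markers was listed at 0 or called, and their part in the values of Tnfrsf12a and Tnfrsf1a was not tested. The deposited locus of the Tnfrsf12a row (chromosome 17) also spans other genes, while the gene itself lies at 23675445 to 23677449. Its neighbours Thoc6, Hcfc1r1 and Ccdc64b have rows of their own at 8.17, 74.0 and 13.8 FPKM in wildtype colon and 8.56, 64.9 and 12.8 FPKM in knockout colon, none called (limma, adjusted p = 0.755, 0.285 and 0.583). Hcfc1r1 was lower in the knockout without overlap, at 78.3, 70.5 and 73.2 FPKM against 65.6, 62.4 and 66.8 FPKM. Thoc6 and Ccdc64b overlapped. In the authors' deposited table Tnfrsf12a has a log2 fold change of -0.60 and a q-value of 1.

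TWEAK itself could not be read alone. Its gene Tnfsf12 and Tnfsf13, the gene of the B cell factor APRIL, lie next to each other on chromosome 11 and share a transcript that joins them, and a single deposited row carries both names with BC096441. That row had 28.8, 25.8 and 28.4 FPKM in wildtype colon and 26.5, 26.5 and 25.3 FPKM in knockout colon (log2 change -0.08, interval -0.24 to 0.08, limma, adjusted p = 0.582). A second row named Tnfsf13 alone covers the same locus and had 3.60, 6.04 and 3.90 FPKM against 6.08, 4.68 and 5.47 FPKM, with overlapping groups (limma, adjusted p = 0.515). The sources used here do not say how fragments were divided between these rows.

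The factors that keep B cells and plasma cells alive were expressed above their receptors. Tnfsf13b (BAFF) had 8.03, 7.36 and 8.64 FPKM in wildtype colon and 7.27, 8.29 and 5.19 FPKM in knockout colon, with a log2 change of -0.20 (interval -0.56 to 0.15, limma, adjusted p = 0.521) that was -0.037 without knockout library 3 (limma, adjusted p = 0.897). Its receptor on mature B cells, Tnfrsf13c (BAFF-R), had 1.33, 1.50 and 0.647 FPKM against 1.21, 0.483 and 0.368 FPKM. Tnfrsf13b (TACI), shared by BAFF and APRIL, had 1.13, 1.22 and 1.04 FPKM against 1.17, 0.580 and 0.616 FPKM. Neither passed the test (log2 change -0.37 and -0.27, limma, adjusted p = 0.451 and 0.379).

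Ltb and Tnfrsf13c were high in libraries of both genotypes and low in libraries of both. Wildtype libraries 1 and 2 and knockout library 1 had the highest Ltb and Tnfrsf13c, and wildtype library 3 and knockout libraries 2 and 3 the lowest. The 7 B cell markers used, which include Cd79a and Ms4a1, split the libraries in the same way, with sums of 17.2, 16.7 and 6.10 FPKM in wildtype colon and 15.8, 4.64 and 2.80 FPKM in knockout colon. Cd79a, a chain of the B cell receptor, had 7.54, 6.42 and 2.63 FPKM against 6.78, 1.44 and 0.894 FPKM. With the mean of the skin markers as a covariate the log2 changes were larger, -0.89 in place of -0.47 for Ltb, -0.63 for Tnfrsf13c and -0.42 for Tnfrsf13b, and none was called (limma, adjusted p = 0.356, 0.281 and 0.285). For Tnfrsf13b the pattern was partial, since wildtype library 3 stayed with the high values. In whole tissue, fewer cells of a type and less RNA per cell cannot be told apart, and the part of B cell content in these values was not tested.

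**Figure D3:**
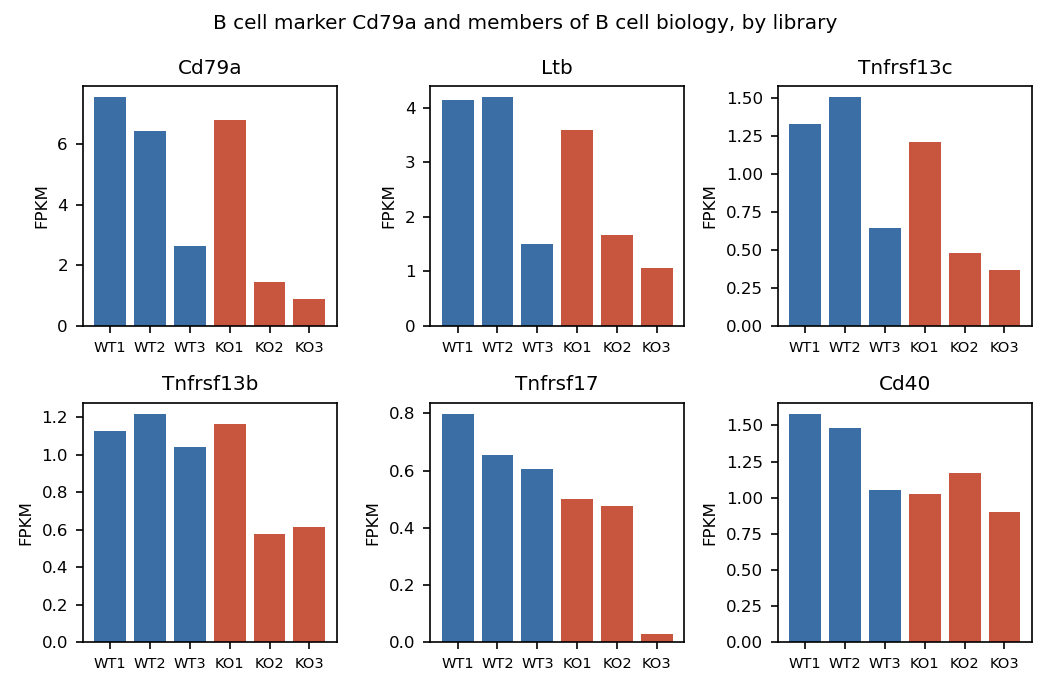
FPKM in each library (bars, blue wildtype, red knockout, axes from 0) of the B cell marker Cd79a and of 5 members tied to B cell and plasma cell biology. Ltb and Tnfrsf13c are high in wildtype libraries 1 and 2 and in knockout library 1, as Cd79a is, while Tnfrsf17 is lower in each knockout library than in any wildtype one.

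Tnfrsf17 (BCMA), the receptor for APRIL and BAFF on plasma cells, did not show that division of the libraries. It had 0.798, 0.655 and 0.607 FPKM in wildtype colon and 0.502, 0.475 and 0.0290 FPKM in knockout colon. The groups did not overlap, but knockout library 3 carried much of the gap and the mean over all libraries, 0.511 FPKM, sits just above the minimum. That minimum was reached through the wildtype mean of 0.687 FPKM, since the knockout mean was 0.335 FPKM. The log2 change of -0.36 (interval -0.73 to 0.02) did not pass (limma, adjusted p = 0.328), and without knockout library 3 it was -0.18 (limma, adjusted p = 0.528).

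Receptors placed in the death receptor set averaged from 0.543 FPKM (Tnfrsf25) to 18.8 FPKM (Tnfrsf21) over the 6 libraries and gave no call. Fas, the receptor for Fas ligand on epithelial and immune cells, had 9.69, 10.1 and 8.79 FPKM in wildtype colon and 9.68, 10.9 and 10.4 FPKM in knockout colon (log2 change 0.11, interval -0.07 to 0.29, limma, adjusted p = 0.507). Fasl, its ligand on cytotoxic lymphocytes, was close to undetected, with 0.0206 and 0.0588 FPKM in wildtype libraries 1 and 2 and a listed 0 in the other 4. Tnfrsf10b, the mouse TRAIL death receptor, was at 2.90, 3.20 and 3.61 FPKM against 3.82, 3.78 and 3.44 FPKM (log2 change 0.15, interval -0.07 to 0.36, limma, adjusted p = 0.449). TRAIL itself, Tnfsf10, was at 2.42, 2.22 and 2.44 FPKM against 2.53, 2.26 and 2.01 FPKM (limma, adjusted p = 0.836).

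The TRAIL receptors without a death domain, Tnfrsf22 and Tnfrsf23, averaged 0.576 and 0.880 FPKM over the 6 libraries, and Tnfrsf26 beside them on chromosome 7 averaged 0.104 FPKM and was not tested. Tnfrsf21 (DR6), a death domain receptor best known from neurons, was the highest of this set at 18.3, 23.0 and 18.6 FPKM in wildtype colon and 21.1, 13.7 and 18.1 FPKM in knockout colon, with overlapping groups (log2 change -0.18, limma, adjusted p = 0.586; -0.33 with the skin covariate, limma, adjusted p = 0.459). Tnfsf15 (TL1A), a ligand that acts on T cells in gut inflammation, had 0.854, 0.594 and 0.693 FPKM in wildtype colon and 0.731, 0.722 and 0.680 FPKM in knockout colon. Its receptor Tnfrsf25 (DR3) had 0.708, 0.366 and 0.415 FPKM against 0.669, 0.635 and 0.466 FPKM, and in both the groups overlapped. Of the 8 tested rows placed in this set 6 were higher and 2 lower in the knockout on the log2 scale, and none was called. Their log2 changes ran from -0.18 to 0.15 with a median of 0.05, and among the 6 Tnfsf15 changed by 4.9e-04. The set holds Tnfrsf22 and Tnfrsf23 but not Tnfrsf1a (-0.24) or Ngfr (-0.31), which were placed in other sets.

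RANK, encoded by Tnfrsf11a and known in the gut for the development of M cells over lymphoid follicles, was among the higher members. It had 17.4, 22.6 and 20.6 FPKM in wildtype colon and 23.2, 20.7 and 22.2 FPKM in knockout colon, with overlapping groups (log2 change 0.12, interval -0.12 to 0.37, limma, adjusted p = 0.563). Its ligand Tnfsf11 averaged 0.203 FPKM over the 6 libraries and was not tested. The soluble decoy Tnfrsf11b (osteoprotegerin) had 2.29, 1.66 and 2.41 FPKM against 1.68, 1.93 and 1.68 FPKM (limma, adjusted p = 0.495). The receptor thus stood well above both its ligand and its decoy in every library.

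Costimulatory members, which lymphocytes and antigen-presenting cells use to talk to each other, were mostly too low to test. Of the 12 rows 4 were tested and none called. Tnfrsf18 (GITR) had 2.62, 2.55 and 2.80 FPKM in wildtype colon and 1.87, 2.21 and 2.78 FPKM in knockout colon, with overlapping groups (limma, adjusted p = 0.507). Cd40, the receptor through which T cells activate B cells and macrophages, had 1.58, 1.48 and 1.05 FPKM against 1.02, 1.17 and 0.898 FPKM, and wildtype library 3 lay among the knockout values (limma, adjusted p = 0.385). Tnfsf9 (4-1BB ligand) had 1.46, 1.11 and 1.31 FPKM against 0.800, 1.30 and 1.36 FPKM, with overlapping groups (limma, adjusted p = 0.722).

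Tnfrsf4 (OX40), a receptor of activated T cells, shares its deposited row with Sdf4, a widely expressed calcium-binding protein of the Golgi. The row had 37.2, 38.4 and 37.8 FPKM in wildtype colon and 37.9, 35.1 and 39.3 FPKM in knockout colon (log2 change -0.02, interval -0.18 to 0.14, limma, adjusted p = 0.921), and it gives no value for Tnfrsf4 alone. T cell markers were low beside it: the 8 listed genes summed to 5.67 to 7.88 FPKM in wildtype colon and 3.94 to 6.00 FPKM in knockout colon. Of the 8 costimulatory rows that were not tested, Cd70 is listed at 0 in all 6 libraries, Cd40lg in 3, Tnfsf18 in 2 and Tnfrsf8 in knockout libraries 2 and 3. The highest of these rows, Cd27, averaged 0.228 FPKM.

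Ngfr, Tnfrsf19 and Eda were highest in wildtype libraries 1 and 3, and so were other members, among them Tnfrsf1a, Tnfrsf11b and Edar. These libraries also had the highest sums of the skin, hair follicle, skeletal muscle, nerve and glia, smooth muscle, fibroblast, endothelial and macrophage markers. Smooth muscle markers (5 of 5) summed to 7142, 4469 and 6351 FPKM in wildtype colon and 4130, 5672 and 5567 FPKM in knockout colon. Apart from a fit with the skin markers as a covariate, the part of these tissues in the values of Ngfr, Tnfrsf19 and Eda was not tested. Ngfr, the low affinity neurotrophin receptor of glia, nerve and hair follicle cells, had 3.74, 2.47 and 3.42 FPKM in wildtype colon and 2.24, 2.41 and 2.46 FPKM in knockout colon. The groups just failed to meet, with wildtype library 2 next to the knockout values. Tnfrsf19 (TROY), a receptor of hair follicles and of stem cells including those of the gut, had 7.88, 4.30 and 7.73 FPKM against 3.43, 5.48 and 4.95 FPKM. Relt, an orphan receptor, had 1.31, 0.653 and 0.726 FPKM against 0.409, 0.765 and 0.505 FPKM, with wildtype library 1 alone above the rest.

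For Ngfr the log2 change was -0.31 (interval -0.61 to -0.01), for Tnfrsf19 -0.42 (interval -0.99 to 0.15) and for Relt -0.27 (interval -0.64 to 0.10), with limma adjusted p-values of 0.301, 0.415 and 0.417. Single libraries moved the last 2 by over 1.5 times: Tnfrsf19 was -0.67 without wildtype library 2 and -0.26 without knockout library 1, and Relt was -0.12 without wildtype library 1 (limma, adjusted p = 0.108, 0.702 and 0.809). With the skin marker mean as a covariate the changes were -0.22, -0.17 and -0.18 (limma, adjusted p = 0.562, 0.748 and 0.706). Over the 31 members without a call this covariate made the change smaller in 12, larger in 17 and turned the direction of 2. Skin sums of 652, 257 and 727 FPKM in wildtype colon and 41, 337 and 622 FPKM in knockout colon put knockout library 3 with wildtype libraries 1 and 3, whereas hair follicle sums set wildtype libraries 1 and 3 apart from the rest. Nerve and glia markers (6 of 6) summed to 48.0, 31.0 and 40.5 FPKM against 26.5, 37.0 and 34.8 FPKM.

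Ectodysplasin, the ligand that shapes hair and skin glands, was low, with its highest values in wildtype libraries 1 and 3. Eda had 0.915, 0.567 and 0.787 FPKM in wildtype colon and 0.483, 0.540 and 0.652 FPKM in knockout colon (log2 change -0.17, interval -0.42 to 0.08, limma, adjusted p = 0.451). Its receptor Eda2r had 0.686, 0.443 and 0.593 FPKM against 0.436, 0.646 and 0.464 FPKM (limma, adjusted p = 0.816). Edar, the receptor of the hair placode, averaged 0.153 FPKM and was not tested. No member of this set was called.

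Several members lie on chromosome 4 near the targeted gene. Tnfrsf8 (CD30), a receptor of activated lymphocytes, is the next member along the chromosome, at 145267132 to 145315164, 0.02 Mb beyond Tnfrsf1b. It had 0.184, 0.387 and 0.250 FPKM in wildtype, 0.0606 FPKM in knockout library 1 and a listed 0 in knockout libraries 2 and 3. All knockout values were below all wildtype values. Tnfrsf8 lay under the minimum for testing; in the fit without that minimum its log2 change was -0.32 ± 0.06 (SE) on the log2(FPKM + 1) scale (limma, adjusted p = 0.217). The authors' deposited table gives Tnfrsf8 a log2 fold change of -3.71 and a q-value of 0.174, the lowest q-value of any member after Tnfrsf1b.

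Farther along chromosome 4, Tnfrsf9 (4-1BB), at a distance of 5.67 Mb, had 0.173, 0.191 and 0.166 FPKM in wildtype colon and 0.160, 0.105 and 0.0785 FPKM in knockout colon. Tnfrsf25 at 6.87 Mb, Tnfrsf14 at 9.67 Mb and the Tnfrsf4 row and Tnfrsf18 at 10.8 Mb had overlapping groups. On the other side, Tnfsf15, at -81.5 Mb, overlapped, while Tnfsf8 (the CD30 ligand), at -81.4 Mb, had 0.134, 0.0843 and 0.104 FPKM against 0.0566, 0.0439 and 0.0609 FPKM. Of the 14 members below the minimum, Tnfrsf8, Tnfrsf9 and Tnfsf8 were the 3 whose groups did not overlap, all lower in the knockout. Among 5067 named rows below the minimum and above 0, 7.42% were lower without overlap, and with both directions counted 12.7% did not overlap. Without the minimum none of the 3 was called (limma, adjusted p = 0.217, 0.342 and 0.299).

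**Figure D4:**
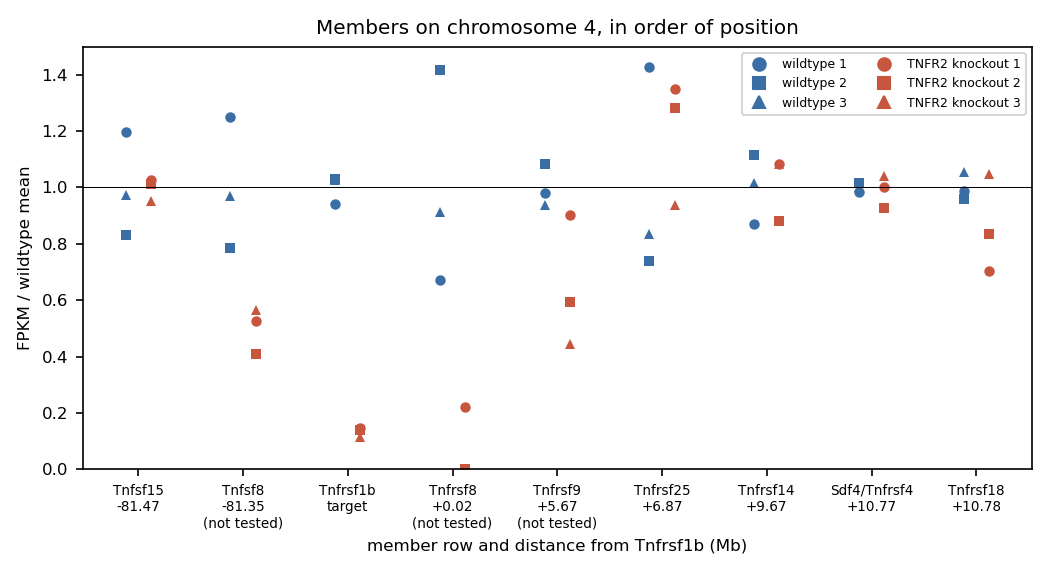
Members on chromosome 4 in order of position, each library's FPKM divided by the wildtype mean of that row (y axis), with the distance from Tnfrsf1b in Mb under each name. Tnfrsf1b and Tnfrsf8 beside it are the rows with all 3 knockout libraries (red) far below wildtype (blue); the Tnfrsf8 points of knockout libraries 2 and 3 coincide at 0.

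Signalling genes downstream of the receptors were read from a list of 39 adaptors, kinases, caspases and NF-kB genes, of which 38 had a row of their own and all 38 were tested. None was called in limma over all genes, where the lowest adjusted p was 0.259, and 4 had an unadjusted p under 0.05 (10.5%, against 16.2% of all tested genes). The knockout mean was the lower one in 18 and the higher one in 20 of the 38, and the median log2 change was 0.01. Nfkbie, an inhibitor of NF-kB, had 2.55, 2.99 and 2.97 FPKM in wildtype colon and 2.34, 1.95 and 1.37 FPKM in knockout colon. Tank, an adaptor that binds TRAF proteins, had 18.4, 20.8 and 18.0 FPKM against 17.5, 14.8 and 15.7 FPKM. In both genes no knockout value reached the wildtype range, as was also so for Traf3 and Rel (limma, adjusted p = 0.397 and 0.468). Cflar and Tnip1 did not overlap in the other direction. Over all tested genes the groups did not overlap in 21.8%, with the knockout lower in 12.5%.

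The other pair with low unadjusted values was higher in the knockout. Cflar, the caspase-8 inhibitor known as c-FLIP, had 8.39, 9.16 and 8.70 FPKM in wildtype colon and between 9.87 and 10.2 FPKM in the 3 knockout libraries. Tnip1, which restrains NF-kB together with A20, had 35.5, 40.8 and 37.9 FPKM against 47.6, 44.7 and 42.1 FPKM. For Nfkbie, Tank, Cflar and Tnip1 the log2 changes were -0.42, -0.24, 0.18 and 0.23, and limma gave adjusted p-values of 0.259, 0.279, 0.273 and 0.274.

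Of the 24617 rows in the authors' deposited table, 252 (1.02%) have a q-value under 0.05, and of the 46 members this holds for Tnfrsf1b. Its log2 fold change there is -2.90, larger than on the log2(FPKM + 1) scale.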

How the data were processed

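The samples are distal colon mRNA of 3 wildtype and 3 TNFR2 knockout mice; groups and replicate numbers are from the labels. The deposited values are FPKM per library and per group, per the file headers. Per the series' design text, the authors used Tophat2 and Bowtie2, Cufflinks and Cuffdiff 2; mm10 is the build per the submitters' processing notes. The sources used here do not give versions, annotation, strandedness or scaling between libraries. The p-values, q-values and log2 fold changes deposited by the authors were copied, not recomputed. Rows with no gene name (1509, 6.13% of rows, 17.7% of summed FPKM) stayed out.

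All named rows with a mean of at least 0.5 FPKM (14564) were fitted as log2(FPKM + 1) in limma 3.58.1 (R 4.3.3), using trended and robust variance moderation, without covariates, two-sided, with Benjamini-Hochberg adjustment over all of them; every adjusted p is from this fit unless a setting is named. Changes are knockout minus wildtype and understate those of low genes. The fit was tested on simulated data. The counts behind FPKM are not used here; relative depth came from the commonest ratio of low values between libraries. Coordinates and promoters are from RefSeq GRCm38.p6, matched by symbol. Values in every library are given for Tnfrsf1b, members called or without overlap, the 10 highest, the TNF and lymphotoxin genes and most tested members of ligand and receptor pairs. Members and lists were chosen with earlier results of these data known. One marker was left out of its list and is not reported here; counts of markers found say how many of the rest had a row. Tables and plots were made with pandas 2.3.3, matplotlib 3.10.9 and numpy 2.4.6 under Python 3.11.15.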

Additional observations from a re-analysis of the deposited data

How the results depend on the processing

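With 3 mice a group and no read counts, precision is that of the intervals given, and members listed at 0 may be failed estimates. Across 15 alternatives (pseudocounts, filters, the variance model, scaling, small RNA genes, a skin covariate, the replicate block and leaving out each library) Tnfrsf1b was the 1 member called and 0 signalling genes were called in every one. Tnfrsf1b lay between -2.79 and -2.06, with adjusted p-values from 6.0e-05 to 0.00698 (limma). Of the 32 tested members 24 kept their direction wherever they were fitted; under the filter at 2 FPKM and without some libraries, lower members dropped out of the fit. The count of genes called over the whole table was 42; it was 22 without small RNA genes, 27 with the skin covariate and 21 to 74 when single libraries were left out (27 without wildtype library 1, 74 without wildtype library 2, 22 without wildtype library 3 and 21 without knockout library 3). Leaving out a single library moved the change by over 1.5 times in 27 of the 31 members without a call; the other 4 were Cd40, Ngfr, Tnfrsf12a and Tnfrsf1a. Direction changed for 8 members whose changes were close to 0, and the cause was not tested. With upper quartile scaling, which moved the median change of all tested genes from -0.03 to 0, the log2 changes were 0.026 for Ltbr, 0.017 for the Sdf4 and Tnfrsf4 row and 0.0033 for Tnf. With the skin covariate they were -0.035 for Tnfrsf14 and 0.046 for Tnfsf9. Leaving out each library in turn, the changes ran from -0.059 to 0.068 for Ltbr, -0.052 to 0.028 for the Sdf4 and Tnfrsf4 row, -0.063 to 0.11 for Tnfrsf14, -0.10 to 0.014 for Tnfsf10, -0.17 to 0.025 for Tnfsf9, -0.03 to 0.072 for Tnfrsf23, -0.05 to 0.059 for Tnfsf15 and -0.071 to 0.052 for Tnf.

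Whether the replicate numbers pair the libraries was not settled. Deviations from the group means correlated at -0.375, -0.337 and 0.209 between libraries of the same number. Wildtype libraries 1 and 2 correlated best with knockout libraries 2 (0.382) and 1 (0.467). Such deviations are centred within each group and can follow tissue makeup, so they cannot decide it. With the replicate number as a block 24 genes were called, and Tnfrsf1b was again the 1 member among them (limma, adjusted p = 0.00698).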
